A study of Mus musculus with 12 samples.

Results

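The level of 9 genes of the Notch pathway was followed in regulatory T cells (Tregs) of a mouse strain with intestinal inflammation: the proteases Adam10 and Adam17, the gamma-secretase subunit Ncstn, the receptors Notch1 and Notch2, the nuclear genes Rbpj and Maml1, and the target genes Dtx1 and Hes1. They were taken by symbol, 9 of the 26609 genes in the table, and 8 of the 9 passed the filter on low counts that left 13692 genes for testing. Hes1 did not pass. Adam10 and Rbpj were chosen by their KO minus WT difference, because their counts were lower in libraries labelled KO than in libraries labelled WT when the sexes were averaged. For all 9 genes every KO against WT value is therefore a description without a test, and the differences between the sexes, which the choice did not use, were tested.

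The cells were sorted as CD4+CD25hiCD127lo singlets from mesenteric lymph nodes of untreated SAMP/YitFC mice, and RNA was taken straight after the sort. The 4 groups were ERb-KO females, ERb-KO males, WT females and WT males, with 3 libraries in each. ERb-KO mice lack estrogen receptor beta, the product of Esr2, throughout the body, so the sorted cells and every cell around them carry the same deletion. Neither the ages of the mice nor the deleted part of Esr2 is given in the sources used here. Nothing in the labels says that each library came from its own mouse. The p-values below therefore cover the spread among these 12 libraries alone, which may be technical.

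Notch receptors are surface proteins that are cut in steps. When a ligand on a neighbouring cell pulls on the receptor, ADAM10 cuts it outside the membrane, and gamma-secretase, whose substrate-docking subunit is nicastrin (Ncstn), then frees the intracellular domain. That domain enters the nucleus, binds the DNA-binding protein RBPJ together with a Mastermind coactivator such as MAML1, and switches on targets such as Hes1, a repressor, and Dtx1, a ubiquitin ligase that acts on the pathway itself. Without the Notch domain, RBPJ holds corepressors at the same genes. ADAM17 is the close relative of ADAM10 best known for releasing tumour necrosis factor and L-selectin, and can cut Notch without ligand. In mouse T cells the pathway is best known for committing thymic progenitors to the T lineage, and in mouse Tregs loss of Notch signalling parts has been linked to altered suppressive function.

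Total counts ranged from 10.2 to 16.7 M per library. Esr2 did not follow the labels: KO-labelled females had 161, 94 and 128 counts, KO-labelled males 8, 2 and 95, WT-labelled females 0, 133 and 159, and WT-labelled males 0, 1 and 14. Counts over the whole gene also include any exon that the deletion left in place. Whether the titled genotypes are right was not tested. Xist and the Y-linked genes went against the titled sex in 4 libraries, namely KO female 1, KO male 1, KO male 2 and WT female 2. The titles define the groups, and "KO" and "WT" mean the libraries labelled so. Foxp3, the defining Treg factor, was present in every library, at 583 to 917 CPM (counts scaled to library size) in KO libraries and 634 to 926 CPM in WT libraries. The Treg list held 6 genes: Foxp3, Il2ra, Ikzf2, Ctla4, Tnfrsf18 and Il7r. Their summed level was 2404 to 3477 CPM in KO libraries and 2694 to 3387 CPM in WT libraries. The KO mean was higher for 1 of these 6, and for 3 of the 3 T cell markers in the table. Il7r encodes CD127, for which the cells were sorted as low, so a lower Il7r does not mean less of a Treg marker. Its median was 170 CPM in KO libraries and 201 CPM in WT libraries. The summed level of 10 B cell markers was 176 to 406 CPM in KO libraries (median 285) and 39.9 to 227 CPM in WT libraries (median 65.7), and the KO mean was higher for 10 of the 10. For macrophage and monocyte markers the sum was 171 to 418 CPM in KO libraries (median 298) and 27.0 to 366 CPM in WT libraries (median 55.9), with the KO mean higher for 7 of 7 in the table. Dendritic cell markers summed to 617 to 1475 CPM in KO libraries (median 780) and 227 to 730 CPM in WT libraries (median 249), with 6 of 8 higher in the KO mean. Nearly all of this sum came from Cd74 (median 664 CPM in KO and 212 CPM in WT libraries) and H2-Ab1 (101 and 28.8 CPM). No other gene of the dendritic cell list exceeded 7.02 CPM in any library, so the sum says little about those genes. In the macrophage and monocyte list Lyz2 was highest, with medians of 181 CPM in KO and 30.6 CPM in WT libraries. The KO mean was also higher for 7 of 7 stromal and endothelial and 7 of 9 neutrophil and mast cell markers. It was higher for 5 of 7 CD8 and NK cell markers and 3 of 4 plasma cell markers in the table. The sums of these further lists overlapped between KO and WT libraries. None of the markers of any list was at 0 in all libraries. In bulk RNA, fewer cells of a type and less RNA per cell cannot be told apart.

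The 2 genes that carry the KO against WT difference, Adam10 and Rbpj, are shown by the RefSeq sequence around their start sites (build GRCm38.p6, 250 bases before to 50 after the start), because these were the members called lower in KO libraries. The stretches lie at chr9:70678732-70679031 on the plus strand for Adam10 and at chr5:53590096-53590395 on the plus strand for Rbpj, for which RefSeq gives a second start that is not printed. Capitals mark the RBPJ core motif, TGGGAA or its reverse complement TTCCCA.
Adam10: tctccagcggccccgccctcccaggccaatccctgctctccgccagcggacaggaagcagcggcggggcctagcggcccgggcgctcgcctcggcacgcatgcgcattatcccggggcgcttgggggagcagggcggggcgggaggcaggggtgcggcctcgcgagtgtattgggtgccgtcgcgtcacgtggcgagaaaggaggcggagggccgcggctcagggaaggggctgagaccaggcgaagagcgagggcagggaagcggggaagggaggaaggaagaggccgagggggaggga
Rbpj: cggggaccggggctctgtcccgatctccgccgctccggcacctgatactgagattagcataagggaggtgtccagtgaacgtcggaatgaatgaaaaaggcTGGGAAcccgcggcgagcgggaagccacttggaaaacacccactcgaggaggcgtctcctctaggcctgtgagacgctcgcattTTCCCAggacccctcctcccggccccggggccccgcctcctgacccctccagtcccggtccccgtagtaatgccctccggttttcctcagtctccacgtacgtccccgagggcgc

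The Adam10 window is 73.3% G and C and holds no match to the core motif, to its longer form GTGGGAA, or to the palindromic estrogen response element (GGTCA, any 3 bases, TGACC), on either strand. The Rbpj window is 64.7% G and C and holds 2 core matches, the first 149 bases before the start. RefSeq promoters were matched for 8 of the 9 genes, with 9 windows in all, and the core stood only in those of Rbpj. In the 32851 promoters of the same length the core was present in 25.6%, the longer form (which contains the core) in 6.38% and the estrogen response element in 0.0700%. A match to 6 letters is a description of the sequence and was not tied to binding by any file.

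Adam10, the protease that makes the ligand-dependent cut, was lower in KO libraries of both sexes. It had 152, 181 and 158 CPM in KO females and 125, 143 and 153 CPM in KO males. In WT females it had 296, 263 and 316 CPM, and in WT males 181, 188 and 301 CPM. KO females lay wholly below WT females and KO males wholly below WT males, while all 6 KO libraries overlapped all 6 WT libraries by the narrow margin of KO female 2 at 181.2 CPM and WT male 1 at 180.8 CPM. The mean was 152 ± 18.5 CPM in KO libraries and 257 ± 59.2 CPM in WT libraries (SD, n = 6 each). On the log2 scale the difference averaged over the sexes was -0.75 (SE 0.13), with -0.84 in females and -0.67 in males. The choice of Adam10 used this difference, so its size may be overstated. Within WT males, the library with 301 CPM stood well above the other 2, and without it the difference in males was -0.39.

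Adam17, the other Notch-cutting protease, differed less between KO and WT libraries than Adam10 and in females alone had groups that did not overlap. KO females had 179.5, 191 and 179.3 CPM and KO males 155, 202 and 198.5 CPM. WT females had 239, 209 and 232 CPM and WT males 160.4, 157 and 219 CPM. The log2 difference was -0.31 in females, 0.05 in males and -0.13 for both sexes together, and the means were 184 ± 16.95 CPM in KO libraries and 203 ± 35.7 CPM in WT libraries (SD, n = 6 each).

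Because both proteases were counted in the same library, their count ratio does not depend on how libraries were scaled. Adam10 counts divided by Adam17 counts were 0.845, 0.949 and 0.879 in KO females and 0.803, 0.709 and 0.773 in KO males. The same ratio was 1.24, 1.26 and 1.36 in WT females and 1.13, 1.19 and 1.37 in WT males. Every KO library thus had fewer Adam10 than Adam17 counts and every WT library more, with no overlap between the 6 KO and the 6 WT libraries. The ratio holds the difference that chose Adam10, and the pair was picked after the values were seen. How many of all gene pairs separate in this way was not computed, so nothing is read from the split. Without the 4 libraries against their titled sex the ratio was 0.773 to 0.949 in KO libraries and 1.13 to 1.37 in WT libraries.

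Rbpj, the DNA-binding partner of the cleaved receptor, was lower in KO libraries by an amount like that of Adam10. KO females had 29.6, 33.6 and 37.3 CPM and KO males 23.0, 30.0 and 27.3 CPM. WT females had 61.4, 64.5 and 53.3 CPM and WT males 28.2, 41.4 and 46.1 CPM. KO and WT females were well apart, and in males WT male 1 lay inside the KO range. The means were 30.1 ± 4.94 CPM in KO libraries and 49.2 ± 13.5 CPM in WT libraries (SD, n = 6 each). The log2 difference was -0.68 averaged over the sexes (SE 0.14), -0.84 in females and -0.53 in males. The choice of Rbpj used this difference, so its size may be overstated. The annotation holds processed copies of Rbpj, named Rbpj-ps1 and Rbpj-ps3, which have no rows of their own under those symbols in the count table, so reads may be shared with them and the level of Rbpj is uncertain to that extent. The ratio of Adam10 to Rbpj counts was 4.22 to 5.62 in KO libraries and 4.08 to 6.51 in WT libraries, so that the pair kept overlapping proportions.

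**Figure D1:**
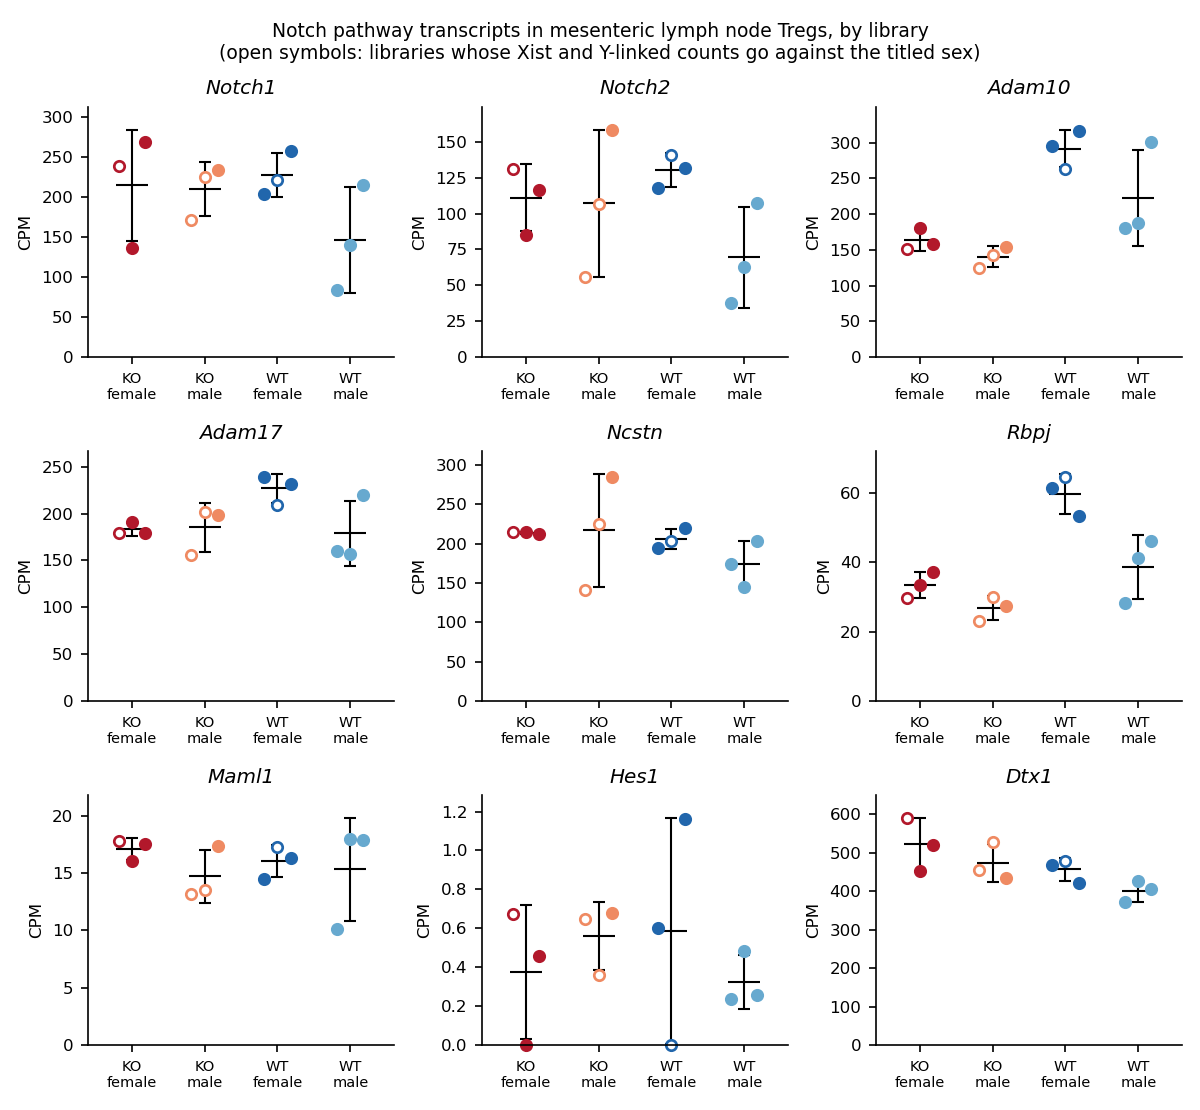
Level of each Notch pathway gene in every library (y axis, CPM, 1 panel per gene), by titled group on the x axis with KO left of WT; points are libraries, open where Xist and Y-linked counts went against the titled sex, and bars are group means with 1 SD. Adam10 and Rbpj sit lower in KO than in WT groups, Notch1 and Notch2 vary most between libraries, and Hes1 lies near 0 throughout.

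In the comparison that chose Adam10 and Rbpj, the KO against WT average over the sexes, these 2 of the 8 tested members passed an adjusted p of 0.05, against 1.50% of all genes tested (206 of 13692) and 0.898% of all genes in the lower direction. As the choice used this comparison, nothing is read from that count. No member separated all 6 KO from all 6 WT libraries, as 1.43% of all genes did with KO lower and 0.971% with KO higher. Within a sex 0 of the 8 members were called by edgeR, against 0% of all genes in females and 0.0730% in males. Neither gene held its call under every processing: Adam10 lost it when the 4 libraries against their titled sex were left out (log2 difference -0.71) and so did Rbpj (-0.62), with the direction kept. Leaving out KO female 1, KO female 3 or WT female 3 ended the call of Adam10, at log2 differences of -0.73, -0.74 and -0.72. Rbpj lost its call in 9 of the 12 fits that left out 1 library, keeping it only without WT male 1, KO male 2 or KO female 2, and its difference ran from -0.78 to -0.61 over these fits. Non-overlap within a sex, KO below WT in every library, was seen for Adam10, Adam17 and Rbpj in females, where 11.8% of all tested genes showed it, and for Adam10 in males, where 7.45% did.

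WT female 1 and WT female 2 had the highest B cell sums among WT libraries, 227 and 132 CPM, and 296 and 263 CPM of Adam10. The B cell sum of WT female 1 lay inside the KO range of 176 to 406 CPM, and the sums of all other WT libraries lay below that range. The part of other cell types in the lower Adam10 and Rbpj of KO libraries was not tested.

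The receptors themselves were not lower in KO libraries of both sexes. Notch1, the receptor best known in T cell development, had 239, 136 and 269 CPM in KO females and 171, 225 and 234 CPM in KO males. It had 204, 222 and 257 CPM in WT females and 83.8, 139.9 and 215 CPM in WT males. Groups overlapped in both sexes, and the log2 difference was -0.09 in females and 0.52 in males. Notch2, its relative, had 131, 85.4 and 117 CPM in KO females and 56.0, 107 and 158 CPM in KO males. The WT values were 118, 141 and 132 CPM in females and 37.9, 62.7 and 108 CPM in males. Notch2 again overlapped in both sexes, with log2 differences of -0.23 in females and 0.62 in males, and its highest library exceeded its lowest 4.18-fold, more than for the other tested members. Notch1 followed with 3.21-fold, and for both receptors the lowest library was WT male 1. Unlike Adam10 and Rbpj, the receptors had higher means in KO libraries, 212 ± 49.1 CPM against 187 ± 63.4 CPM in WT libraries for Notch1 and 109 ± 35.7 CPM against 99.8 ± 40.7 CPM in WT libraries for Notch2 (SD, n = 6 each).

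Ncstn, the gamma-secretase subunit that docks the substrate, had 215, 215 and 212 CPM in KO females and 142, 225 and 285 CPM in KO males. WT females had 195, 203 and 219.7 CPM and WT males 174, 146 and 203 CPM. KO males spanned the whole range of the gene while KO females hardly differed among themselves, and the log2 difference was 0.05 in females and 0.32 in males. Set against Adam10, which acts one step earlier on the same receptor, Ncstn counts were 1.14 to 1.86 times those of Adam10 in KO libraries and 0.658 to 0.965 times in WT libraries, without overlap. This ratio too holds the difference that chose Adam10 and was picked after the values were seen.

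Maml1, a Mastermind coactivator, was low in every library. It had 17.7, 16.0 and 17.5 CPM in KO females and 13.2, 13.5 and 17.4 CPM in KO males. It had 14.5, 17.3 and 16.3 CPM in WT females and 10.1, 17.9 and 17.9 CPM in WT males. With a log2 difference of 0.02 averaged over the sexes, it lay nearer to 0 than any other tested member, while Rbpj sits in the same nuclear complex. The Maml1 to Rbpj count ratio was 0.451 to 0.637 in KO libraries and 0.236 to 0.433 in WT libraries. It holds the difference that chose Rbpj and was picked after the values were seen.

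Dtx1, a ubiquitin ligase and Notch target, had 591, 453 and 521 CPM in KO females and 456, 529 and 434 CPM in KO males. WT females had 469, 478 and 422 CPM and WT males 371, 425 and 404.5 CPM. In males every KO library lay above every WT library, which 6.95% of all tested genes did, and in females the groups overlapped. The log2 difference was 0.19 in females, 0.24 in males and 0.22 for both sexes together, opposite in sign to that of Rbpj. Dtx1 counts were 13.5 to 20.0 times those of Rbpj in KO libraries and 7.42 to 13.2 times in WT libraries, so the ratio did not overlap, although the lowest KO and the highest WT library nearly met. Here the ratio holds the difference that chose Rbpj, and it was picked after the values were seen.

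Hes1, the classic repressor target, was at the edge of detection. Its counts were 10, 0 and 5 in KO females, 8, 5 and 7 in KO males, 9, 0 and 15 in WT females, and 4, 7 and 4 in WT males, which add up to 74 in 12 libraries. KO female 2 and WT female 2 had none, where 3 counts would have corresponded to 0.176 to 0.291 CPM across the libraries. No difference in Hes1 was detectable at this depth.

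**Figure D2:**
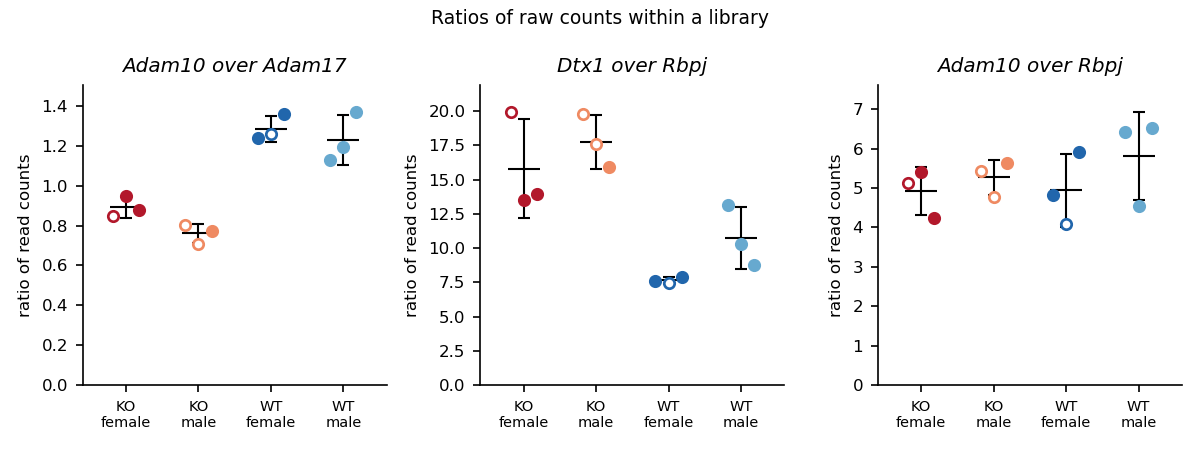
Count ratios of gene pairs in every library (y axes, ratio of raw counts), by titled group with KO left of WT; each point is 1 library, open where it went against its titled sex, and bars are means with 1 SD. Adam10 to Adam17 runs from 0.709 to 0.949 in KO libraries and from 1.13 to 1.37 in WT libraries, and Dtx1 to Rbpj from 13.5 to 20.0 in KO and from 7.42 to 13.2 in WT. The pairs were picked after the values were seen, and hold the differences that chose Adam10 and Rbpj.

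Levels per length put the 9 genes in order. Over all 12 libraries, and per kilobase of all annotated exons, Dtx1 stood highest at 87.8 ± 11.5 CPM per kilobase (SD, n = 12), followed by Ncstn at 51.0 ± 9.51, Adam10 at 41.7 ± 14.1 and Adam17 at 27.1 ± 3.97 CPM per kilobase. Notch1 at 14.0 ± 3.91 exceeded Notch2 at 9.68 ± 3.42 CPM per kilobase. Rbpj at 3.11 ± 1.09 and Maml1 at 2.86 ± 0.444 CPM per kilobase stood near the bottom, above Hes1 at 0.227 ± 0.160. Neighbours kept this order in all 12 libraries except for Ncstn over Adam10 and Rbpj over Maml1, and in both pairs the order went with the titled genotype. Ncstn lay above Adam10 in 6 of 6 KO libraries and 1 of 6 WT libraries. Rbpj lay above Maml1 in 0 of 6 KO libraries and 6 of 6 WT libraries. Per kilobase of the longest coding transcript instead, Ncstn lay above Adam10 and Rbpj above Maml1 in all 12 libraries. Neither of these orders thus went with the titled genotype on that length. Notch2 lay above Rbpj in 6 of 6 KO libraries and 3 of 6 WT libraries. Rbpj reached 7.23 CPM per kilobase against 2.86 for Maml1, and Adam10 averaged 44.6 and Adam17 43.3 CPM per kilobase. On that length Adam10 lay above Adam17 in 0 of 6 KO libraries and 6 of 6 WT libraries, with KO means of 33.1 for Adam10 and 41.2 for Adam17 and WT means of 56.0 for Adam10 and 45.4 for Adam17. The orders that went with the titled genotype depend on the length used and rest on the KO against WT difference that chose Adam10 and Rbpj.

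The genes lie apart in the genome (GRCm38, GENCODE M21). Adam10 is at chromosome 9, 70678997 to 70780229, Rbpj at chromosome 5, 53466152 to 53657362, Notch1 at chromosome 2, 26457903 to 26516663, and Notch2 at chromosome 3, 98013527 to 98150361. Adam17 is at chromosome 12, 21323509 to 21373632, Ncstn at chromosome 1, 172066013 to 172082795, Maml1 at chromosome 11, 50255634 to 50292311, Hes1 at chromosome 16, 30064384 to 30067796, and Dtx1 at chromosome 5, 120680202 to 120711927. Counts cover the exons of each gene. Part of the exon length is shared with another gene for Adam17 (4.35%, with Iah1), Notch1 (7.50% with 0610009E02Rik and 2.91% with Gm13568), Notch2 (5.02%, with Gm42820), Maml1 (2.44%, with Gm26542) and Ncstn (4.91%, with Copa). The kits did not mark strand, so reads from those stretches cannot be told apart by gene.

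Differences between the sexes were tested next, with edgeR's quasi-likelihood test and Benjamini-Hochberg adjustment over 13692 genes. Averaged over the genotypes, all 8 tested members had a positive female minus male difference, but 0 of the 8 passed, as did 0% of all genes, where 966 genes (7.06%) had an unadjusted p under 0.05. Of all genes, 50.2% had a negative difference. The lowest library was KO male 1, which went against its titled sex, for 4 members (Adam10, Adam17, Rbpj and Ncstn). It was WT male 1 for 4 others (Notch1, Notch2, Dtx1 and Maml1). Rbpj had the smallest unadjusted p, with a log2 difference of 0.48 (SE 0.14, 95% interval 0.18 to 0.78, unadjusted p = 0.00422, edgeR adjusted p = 0.662). Adam10 had 0.30 (95% interval 0.02 to 0.59, unadjusted p = 0.038, edgeR adjusted p = 0.662). For Notch2 the difference was 0.48 with an interval of -0.05 to 1.01, and for Notch1 it was 0.33. The remaining 4 lay between 0.11 and 0.17. DESeq2, which called 5 of all genes, and limma voom also called none of the 8. Without the 4 libraries against their titled sex, which leaves KO male 3 alone in its group, the difference was 0.49 for Rbpj, 0.32 for Adam10, 0.24 for Notch1 and 0.11 for Notch2, so that of these 4 genes Notch2 moved most.

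Within WT libraries, which form part of that average, all 8 estimates were positive, where 49.3% of all genes had a negative one. Within KO libraries 6 of the 8 were positive, where 50.6% of all genes had a negative one. Rbpj was higher in WT females by 0.63 on the log2 scale (SE 0.20, 95% interval 0.21 to 1.06, unadjusted p = 0.00626), with 61.4, 64.5 and 53.3 CPM against 28.2, 41.4 and 46.1 CPM in WT males. Notch2 was higher in WT females by 0.91 (SE 0.35, 95% interval 0.15 to 1.66, unadjusted p = 0.022), and Notch1 by 0.64 (SE 0.29, 95% interval 0.01 to 1.27, unadjusted p = 0.0467). None of the 8 passed the adjustment over all genes (edgeR adjusted p of 0.718 to 0.971), and 0% of all genes did, with 893 genes (6.52%) at an unadjusted p under 0.05. In this comparison limma voom with quality weights called 3 members, Notch2, Rbpj and Adam10, beside 348 of all 13692 genes. Without the filter on low counts edgeR called Notch2, beside 191 of 24584 genes, while DESeq2 called none of the 8 and 30 of all genes. Without the 4 libraries against their titled sex, of which WT female 2 is the WT one, the estimates were 0.58 for Rbpj, 0.85 for Notch2 and 0.66 for Notch1. Rbpj and Notch2 did not overlap between titled WT females and WT males, as 7.55% of all genes did not in that direction. The highest WT value of both genes, 64.5 CPM for Rbpj and 141 CPM for Notch2, was that of WT female 2. As this library went against its titled sex, the split follows the titles and not the expressed sex. In KO, the libraries KO female 1, KO male 1 and KO male 2 went against their titled sex, so this contrast compares titles and not expressed sexes. Within KO libraries the female minus male differences were 0.32 for Rbpj (95% interval -0.11 to 0.75), 0.22 for Adam10, 0.22 for Maml1 and 0.14 for Dtx1. For Notch1, Notch2, Adam17 and Ncstn they lay between -0.02 and 0.05, and no member separated the KO sexes (3.64% of all genes did with females higher and 3.35% with females lower). Adjusted p-values within KO were 0.849 to 0.989 by edgeR, where 0% of genes passed, also by DESeq2, and 722 (5.27%) had an unadjusted p under 0.05.

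Whether the KO against WT difference itself differed between the titled sexes was tested by the interaction. Xist and the Y-linked genes went against these titles in KO female 1, KO male 1, KO male 2 and WT female 2. The estimate was -0.85 for Notch2 (95% interval -1.92 to 0.21), -0.61 for Notch1 (-1.49 to 0.28), -0.36 for Adam17, -0.31 for Rbpj (-0.91 to 0.29), -0.26 for Ncstn, -0.17 for Adam10 (-0.74 to 0.40), -0.05 for Dtx1 and 0.15 for Maml1, on the log2 scale. None passed (edgeR adjusted p of 0.900 to 0.980), and 0% of all genes did, with 659 (4.81%) at an unadjusted p under 0.05 and 3 genes called by DESeq2. For Adam10 the interval of the difference between the sexes thus spans -0.74 to 0.40 log2, and its lower bound is about as large as the KO minus WT difference of -0.75.

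**Figure D3:**
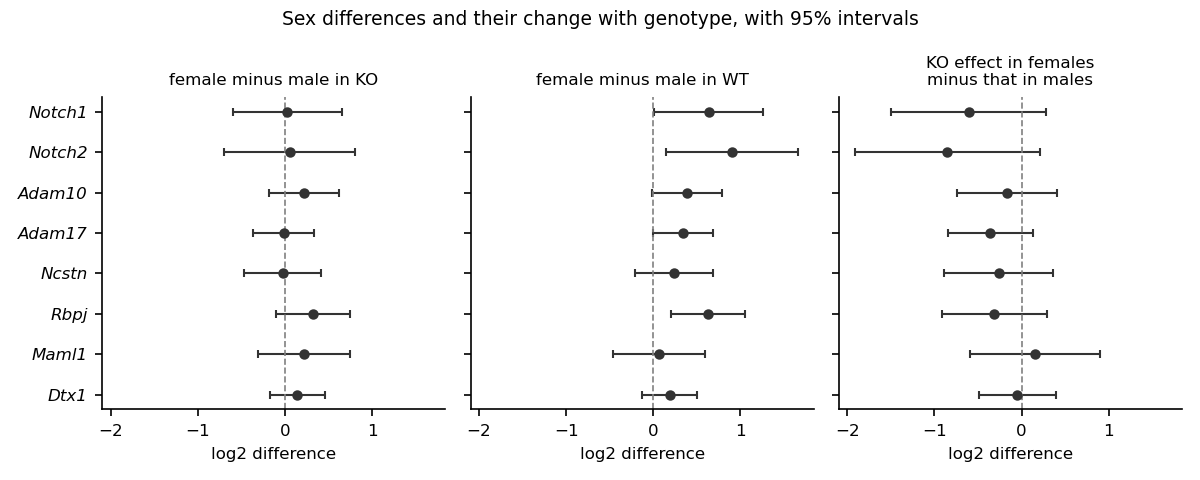
Female minus male differences by titled sex and the interaction for the 8 tested genes (x axis, log2 difference; points are edgeR estimates and bars 95% intervals). The WT estimate of Rbpj is 0.63 and that of Notch2 is 0.91, and the intervals of the interaction all include 0.

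Genes were also ranked by how like their profile was to that of Adam10 or Rbpj. Likeness was measured as the root mean square difference of mean-centred log2 CPM over the 12 libraries, among 9029 genes of at least 10 CPM, as a description without a test. Both genes were chosen for being lower in KO libraries, and the same difference enters the measure, so their likeness to each other is partly fixed by the choice. The profile nearest to Adam10 was Larp4b, an RNA-binding protein, at 0.103, followed by Cyld, a deubiquitinase, at 0.122, Trp53inp1 at 0.131, Eif5a2 at 0.134 and Shoc2 at 0.142, where Adam10 itself varied by 0.448. Rbpj was the 47th nearest to Adam10, at 0.209, and Adam17 the 628th, at 0.327. Nearest to Rbpj were Slc35a3 at 0.177, Sos2 at 0.181, Larp4b at 0.183, Trip12 at 0.197 and Ids at 0.199, and Adam10 was the 10th, at 0.209. Adam17 ranked 666th for likeness to Rbpj, and the other tested members ranked between 2062 and 7522 for likeness to either gene.

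Beyond the 9 genes, 88 others of the pathway were looked up, and 83 were tested. In the KO against WT average 1 of the 83 was called higher and none lower, against 0.606% of all genes called higher and 0.898% called lower, with 48 positive and 35 negative estimates and a median of 0.07 (median of all genes tested 0.02). These lists were compiled with earlier results known, and are described by their counts. The called gene was Tspan15, a tetraspanin partner of ADAM10, at low counts: 7, 25 and 12 in KO females, 28, 7 and 12 in KO males, 0, 4 and 1 in WT females, and 2, 1 and 0 in WT males. Its mean was 1.27 ± 0.78 CPM in KO libraries and 0.09 ± 0.10 CPM in WT libraries (SD, n = 6 each), and every KO library had more counts than every WT library. With 0 to 4 counts in each WT library, Tspan15 passed the filter on low counts only through the KO libraries, so that it could hardly pass without differing. Its call and fitted difference therefore carry little weight and are not set against those of the other genes. The call was lost in 15 of the 20 alternatives, among them 11 of the 12 fits that left out 1 library (the exception being KO male 2) and the fit without the 4 libraries against their titled sex.

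Ordered by role, the receptors had 3 of 4 tested members positive (median 0.21) and the sheddases, Adam10 and Adam17, had none of 2 (median -0.44). The ligands had 2 of 4 tested members positive (median -0.03), and Dll1, their highest per length, averaged 3.86 ± 1.62 CPM in KO libraries and 6.63 ± 1.00 CPM in WT libraries. The enzymes that glycosylate the receptor had 4 of 5 positive (median 0.07), and Lfng, a Fringe glycosyltransferase, averaged 263 ± 73.8 CPM in KO libraries and 174 ± 46.9 CPM in WT libraries. Sheddase partners had 8 of 10 positive (median 0.20), with Frmd8, an iRhom-binding protein, at 385 ± 100 CPM in KO libraries and 369 ± 19.1 CPM in WT libraries. Gamma-secretase had 5 of 7 positive (median 0.20), and Psenen, its smallest subunit, averaged 98.8 ± 24.5 CPM in KO libraries and 81.5 ± 14.5 CPM in WT libraries. In the nuclear list, which includes Rbpj, 5 of 9 were positive (median 0.02), and Snw1 averaged 251 ± 37.4 CPM in KO libraries and 301 ± 21.3 CPM in WT libraries. Corepressors of RBPJ had 6 of 15 positive (median -0.05), with Hdac1, a deacetylase, at 275 ± 51.3 CPM in KO libraries and 275 ± 20.1 CPM in WT libraries. Turnover genes had 8 of 17 positive (median -0.02). Of the targets, 6 of 9 were positive (median 0.16), with Myc at 275 ± 36.2 CPM in KO libraries and 265 ± 30.9 CPM in WT libraries, and of the shed substrates 7 of 10 (median 0.19), with Tnfrsf1b at 680 ± 124 CPM in KO libraries and 705 ± 127 CPM in WT libraries. In the sex and interaction contrasts no gene of any list passed. The estimates were positive for 48 of 83 for females against males averaged over genotypes, 35 in KO, 57 in WT and 30 for the interaction. Over all genes tested, 50.2%, 50.6%, 49.3% and 50.7% of the estimates were negative in the same order. These counts follow the titled sexes, and nothing is read from them.

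**Figure D4:**
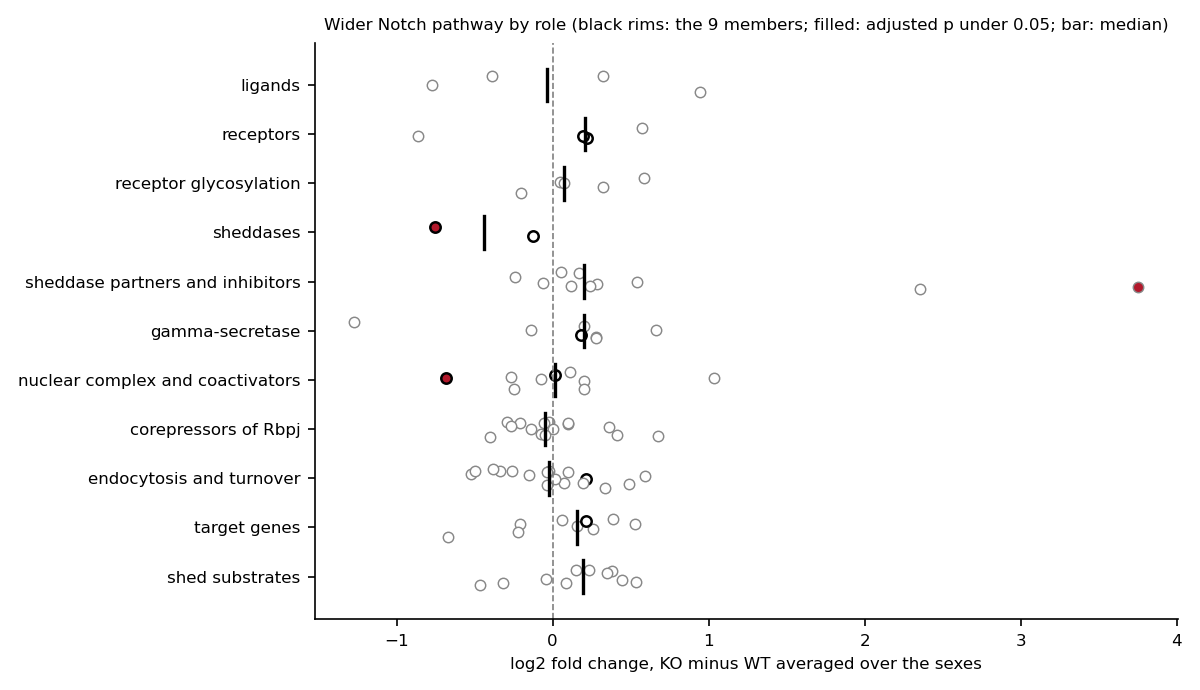
KO minus WT log2 differences, as averages of both sexes (x axis), for the tested genes of each Notch pathway list; each point is 1 gene, filled where its adjusted p is under 0.05, with a dark rim for the 9 members and a bar at each list's median. Adam10 at -0.75 and Rbpj at -0.68 are on the low side, and Tspan15, the highest point, passed the filter on low counts only through the KO libraries.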

How the data were processed

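Gene expression was measured by RNA-seq in 12 libraries of sorted mouse Tregs. Per the labels' protocols, RNA came from the NucleoSpin XS kit and libraries from SMART-Seq v4 and Nextera XT, which do not mark strand. The authors deposited raw counts per gene symbol for 26609 genes. The submitters' processing notes name HISAT2 2.0.5 with the build GRCm38, featureCounts 1.5.0-p2 of Subread, and edgeR. Strand setting and annotation release: not given in the sources used here. They also deposited log2 values for the 24584 genes above 0, which equal edgeR's TMM-scaled log2 CPM with a prior count of 0.25 to within 5e-14.

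Groups came from the sample titles, and libraries were numbered within a group. The number 2 stands on 2 WT male titles, which were kept as separate libraries. Low counts were removed with filterByExpr, keeping 13692 genes with 99.8% or more of each library's counts, and scaling was by TMM (R 4.3.3, edgeR 4.0.16). One robust quasi-likelihood model of 4 group means was fitted to all 12 libraries, so that groups shared 1 estimate of the spread (common biological coefficient of variation 29.3%). Tests were two-sided, with Benjamini-Hochberg adjusted p over the 13692 genes called under 0.05. The code of the fit was run on counts simulated from its own estimates of level and spread. Such a run cannot show whether the model holds for these libraries. CPM values were computed on library sizes after TMM scaling, and levels set between genes are per kilobase of GENCODE M21 exons. A log2 difference is the first named group minus the other.

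The members and gene lists were chosen with earlier results of these data known. Named were all 9 members, called genes of the wider lists (at most 4 per list and comparison), the gene of each list with the highest level per length, and the 5 genes nearest in profile to Adam10 and to Rbpj. The count ratios were chosen after the values were seen. Alternatives were DESeq2 1.42.0, limma 3.58.1 with voom quality weights, limma on the deposited log2 values, RLE scaling, no filter, the title number as a block, the WT male libraries numbered 2 summed, the libraries against their titled sex left out, and each library left out in turn.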

Additional observations from a re-analysis of the deposited data

How the results depend on the processing

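Of 640 recomputed sex and interaction estimates 29 changed sign, and of 500 KO minus WT estimates 17 did. The call of Tspan15 was lost in 15 of 20 alternatives. In the KO against WT average of both sexes, 2 members were called (Adam10 and Rbpj). With the title number as a replicate block the count was 0, and it was also 0 without the libraries against their titled sex. It was 1 with the WT male libraries numbered 2 summed, and 0 to 2 with 1 library left out. The log2 difference stayed negative throughout, from -0.82 to -0.62 for Adam10 and from -0.78 to -0.61 for Rbpj, and the cause of the lost calls was not tested. Over all genes the same comparison called 206, against 647 with DESeq2, 597 with voom, 627 without the filter, 31 with the summed libraries, 9 with the block, 14 without the libraries against their titled sex and 12 to 543 with 1 library left out. In females KO minus WT called 0 members, and DESeq2 called 2 (23 of all genes), voom 3 (1698 of 13692) and no filter 2 (132 of 24584). In males it called 0, and DESeq2 (419 of all genes) and no filter (443) called 1 each. Female minus male in WT called 0, voom 3 (348 of all genes, log2 differences of 0.53 for Adam10, 0.66 for Rbpj and 1.08 for Notch2) and no filter 1 (191 of all genes, Notch2 at 0.91). Adjusted p-values of Notch2 there ran from 0.0019 to 1.00 over the alternatives by the tools named. None of the estimates that changed sign was called. For KO minus WT the changed values reached 0.15 for Notch1 in females, 0.16 for Maml1 and -0.039 for Adam17 in males, and -0.10 for Maml1 and -0.0037 for Notch2 in the average. Without the libraries against their titled sex, KO male 3 stands alone in its group and is assumed to vary like the others. There, female minus male averaged over the genotypes was -0.0041 for Maml1 and -0.068 for Ncstn. In KO it was -0.18 for Notch1, -0.62 for Notch2 and -0.026 for Maml1, and the interaction was 0.032 for Dtx1 and -0.044 for Maml1. With voom, female minus male in KO was 0.012 for Adam17 and 0.104 for Ncstn, and the interaction of Dtx1 was 0.084. With the deposited log2 values, female minus male in KO was -0.018 for Notch1 and 0.032 for Ncstn, and for Ncstn it was 0.015 with the replicate block. With 1 library left out, female minus male averaged over the genotypes ran from -0.0066 to 0.23 for Ncstn. In KO it ran from -0.13 to 0.059 for Adam17, from -0.16 to 0.27 for Notch1, from -0.26 to 0.45 for Notch2 and from -0.26 to 0.22 for Ncstn. In WT it ran from -0.16 to 0.20 for Maml1, and the interaction of Dtx1 from -0.15 to 0.040. Deviations from the group means correlated at -0.27 to 0.092 between libraries of 1 title number (median -0.039), against a median of -0.0069 for other pairs. No pairing by title number was thus seen, though these correlations cannot exclude a shared origin. With 3 libraries in a group, leaving out 1 library changed the sign of some of these estimates. Hes1, with 74 counts in all, was below what the depth can compare.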
